A study of Mus musculus with 8 samples.

Results

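The respiratory chain genes of MT-ret tumours were examined on 8 arrays. The hosts of 4 tumours had received a blocking antibody against Ang2 (angiopoietin-2, a vascular ligand), called anti-Ang2 here, and the hosts of the other 4 a control antibody (IgG). Members were the probe sets annotated to a single gene whose symbol begins with Nduf, Uqcr, Atp5 or Cox4 to Cox8, together with Sdha, Sdhb, Sdhc and Sdhd. Ndufa4l2 was left out. The rule found 79 of the 22836 genes in the comparison, and all 79 had a value on every array. By complex, 35 members belonged to complex I (30 subunits and 5 assembly factors), 4 to complex II, 7 to complex III, 17 to complex IV and 15 to complex V. The remaining member, Emc8, is named Cox4nb on the array, encodes a subunit of an endoplasmic reticulum membrane complex and is not a respiratory chain gene. A further 10 subunit genes that fit the pattern lie only on probe sets annotated to several genes, and were not analysed here (Atp5o, Cox5b, Cox6c, Ndufb2, Ndufb4, Ndufc2, Ndufs1, Ndufs5, Ndufs6 and Uqcr10).

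MT-ret mice carry a Ret oncogene behind the metallothionein promoter and develop melanoma. Pieces of such tumours had been grafted on the flank of C57BL/6N hosts, so the antibody was the single labelled difference between the groups, and both groups shared graft, host strain and site. Treatment began at day 7 of graft growth and ended with resection of the primary tumour, whose total RNA was hybridised. A sample therefore holds tumour cells and the host's vessels, immune cells and adjoining tissue. The labels number the tumours separately but do not say how many donor tumours the pieces came from, and p-values measure the spread between these 8 tumours. In bulk tissue, fewer cells of a type and less RNA per cell cannot be told apart.

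The respiratory chain sits in the inner mitochondrial membrane. Complexes I and II take electrons from NADH and succinate, complex III passes them by way of cytochrome c to complex IV, which reduces oxygen, and the proton gradient built on the way drives complex V, the ATP synthase. Most subunits are encoded in the nucleus and a few in mitochondrial DNA. Some complex IV subunits have separate isoforms for skeletal muscle and heart, and under low oxygen HIF-1 is known to shift cells away from respiration. Many nuclear subunit genes are known targets of the transcription factors NRF1 and GABP, an ETS factor.

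The promoter windows of RefSeq (build GRCm38.p6, 250 bases before to 50 after the gene start) held 66 of the 79 members. The NRF1 letters, GCGCA and GCGC with any base between them, read like all motifs here on both strands, occurred in 14 of these 66 genes (21.2%), against 7.11% of 16614 genes of the comparison with a window and 5.19% of all 27025 genes in the table. The ETS letters CCGGAAG occurred in 17 of 66 (25.8%), against 12.6% of genes in the comparison and 9.93% of all genes. The YY1 letters AAGATGGC occurred in 10 of 66 (15.2%), against 3.59% and 3.19%. So these 3 motifs were more frequent among members than among genes at large. The Sp1 letters GGGCGG (48.5%) were about as frequent as among genes in the comparison (49.5%), though more frequent than among all genes (38.2%). The muscle-type E-box CAGCTG was less frequent (7.58%, against 18.2% and 18.3%). ACGTG, the core of the hypoxia response element, was in 30.3% of members, against 23.7% and 21.8%. None of the 4 tissue-restricted isoforms with a window held the NRF1, ETS or YY1 letters. Motifs may overlap each other, and a match is a description of letters, not a binding site.

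The windows of Atp5k, the member with the smallest p-value, and of 2 isoform pairs are printed to show how these letters differ. In each pair the widely expressed gene is followed by its muscle counterpart. Capitals mark the letters of NRF1, ETS, YY1, Sp1 or CAGCTG on either strand. Atp5k (chr5:108434350-108434649, minus strand) has 1 NRF1 and 1 ETS match, Cox7a2 (chr9:79759804-79760103, minus strand) 1 Sp1 match, and Cox8a (chr19:7217567-7217866, minus strand) 2 ETS matches. Of the muscle isoforms, Cox7a1 (chr7:30183921-30184220, plus strand) has none of these letters and Cox8b (chr7:140900397-140900696, minus strand) has 2 CAGCTG boxes.
Atp5k: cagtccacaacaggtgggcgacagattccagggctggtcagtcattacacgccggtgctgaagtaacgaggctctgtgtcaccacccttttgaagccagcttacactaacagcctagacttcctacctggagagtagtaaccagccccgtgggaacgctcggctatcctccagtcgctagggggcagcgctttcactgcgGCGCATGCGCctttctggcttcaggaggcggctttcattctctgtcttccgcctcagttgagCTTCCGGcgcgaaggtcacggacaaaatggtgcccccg
Cox7a2: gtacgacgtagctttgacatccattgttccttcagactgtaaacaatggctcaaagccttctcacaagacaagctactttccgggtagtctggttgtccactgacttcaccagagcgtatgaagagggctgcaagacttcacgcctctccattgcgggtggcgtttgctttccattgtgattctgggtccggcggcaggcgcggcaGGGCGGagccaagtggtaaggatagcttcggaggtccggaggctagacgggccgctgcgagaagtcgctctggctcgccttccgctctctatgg
Cox7a1: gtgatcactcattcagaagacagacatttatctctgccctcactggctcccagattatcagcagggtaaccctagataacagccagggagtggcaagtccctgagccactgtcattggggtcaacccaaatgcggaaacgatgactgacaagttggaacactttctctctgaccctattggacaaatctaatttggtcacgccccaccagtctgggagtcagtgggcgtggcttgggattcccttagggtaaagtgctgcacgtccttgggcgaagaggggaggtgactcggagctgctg
Cox8a: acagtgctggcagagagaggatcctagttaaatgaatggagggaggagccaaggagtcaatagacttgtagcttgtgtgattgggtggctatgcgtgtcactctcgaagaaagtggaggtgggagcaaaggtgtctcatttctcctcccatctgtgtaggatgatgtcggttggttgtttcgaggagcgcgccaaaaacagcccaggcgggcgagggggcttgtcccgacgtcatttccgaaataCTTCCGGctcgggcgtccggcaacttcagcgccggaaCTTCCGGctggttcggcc
Cox8b: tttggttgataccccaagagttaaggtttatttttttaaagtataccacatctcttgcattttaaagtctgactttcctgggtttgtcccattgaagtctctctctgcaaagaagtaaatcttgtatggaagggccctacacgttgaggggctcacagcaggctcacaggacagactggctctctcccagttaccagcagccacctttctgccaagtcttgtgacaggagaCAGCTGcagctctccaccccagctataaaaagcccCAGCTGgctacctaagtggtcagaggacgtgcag

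Across the arrays, log2 intensity had medians from 6.09 to 6.15 and pairwise correlations of 0.967 to 0.988 over genes. The melanocyte genes Tyrp1 and Dct stood at 12.43 to 12.92 and 13.44 to 13.69 in all 8 tumours, so both were present throughout. Melanocytic level was not even, however. Relative to the 8 arrays, the mean of 7 melanocytic genes was -0.43 in IgG replicate 1. In the other tumours it ran from -0.07 (IgG replicate 2) to 0.19 (IgG replicate 3). Tyrp1, Tyr, Pmel, Mlana and Mitf were lowest in IgG replicate 1, while Dct and Sox10 were not. Mlana measured 8.18 there, against 9.82 in IgG replicate 3. Skeletal muscle transcripts set IgG replicates 1 and 2 apart. The mean of 16 muscle genes was 6.29, 7.39, 6.09 and 6.00 in anti-Ang2 replicates 1 to 4, against 9.37, 8.00, 6.26 and 7.27 in IgG replicates 1 to 4. All 16 had a difference below 0, anti-Ang2 minus IgG, as did 46.4% of all genes, and 11 had an unadjusted p under 0.05, as did 3.00% of all genes in that direction. None of the 16 passed correction in limma. Markers of brown adipocytes, which also express muscle-type isoforms, had a mean difference of -0.01 over 4 genes, with Ucp1 at 0.05. Ucp1, Cidea and Elovl3 were dim (29.4, 31.9 and 11.1 percentiles of gene means). Differences near 0 at such levels cannot show whether brown fat content was equal.

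Each difference is the anti-Ang2 mean minus the IgG mean of log2 intensity. No respiratory chain gene passed limma's test: 0 of 79 had an adjusted p under 0.05, where 0.00% of all genes did, and the smallest adjusted p was 0.604, for Atp5k. Differences were small and leaned below 0. They ran from -0.50 (Cox6a2) to 0.46 (Cox7a2l), with a median of -0.09 and a mean of -0.07, while all genes had a median of 0.01. In all, 53 of 79 members (67.1%) had a difference below 0, against 46.4% of all genes. That split was 57 of 79 after centring each array on its median, where 51.4% of all genes were below 0, and 47 to 56 of 79 when each array was left out in turn.

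At an unadjusted p under 0.05 limma gave 4 members with a negative difference (5.06% of members, against 3.00% of all genes) and 0 with a positive one (against 4.09%). The 4 were Atp5k, Atp5j, Ndufa1 and Ndufb7. This number is close to the background and moved with single arrays. Leaving out anti-Ang2 replicate 1 gave 1 such member, as did leaving out IgG replicate 3. Leaving out anti-Ang2 replicate 2 gave 8, leaving out anti-Ang2 replicate 3 also 8, and leaving out IgG replicate 4 gave 9. For no member were all 4 values of a group beyond all 4 of the other, where 1.46% of all genes had such groups with anti-Ang2 lower and 2.28% with anti-Ang2 higher. The 95% interval lay between -0.5 and 0.5 for 60 of 79 members (75.9%, against 84.3% of all genes). For the rest it reached past 0.5 on at least one side, and apart from Atp5k, Atp5j and Ndufb7 these intervals also held 0.

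**Figure D1:**
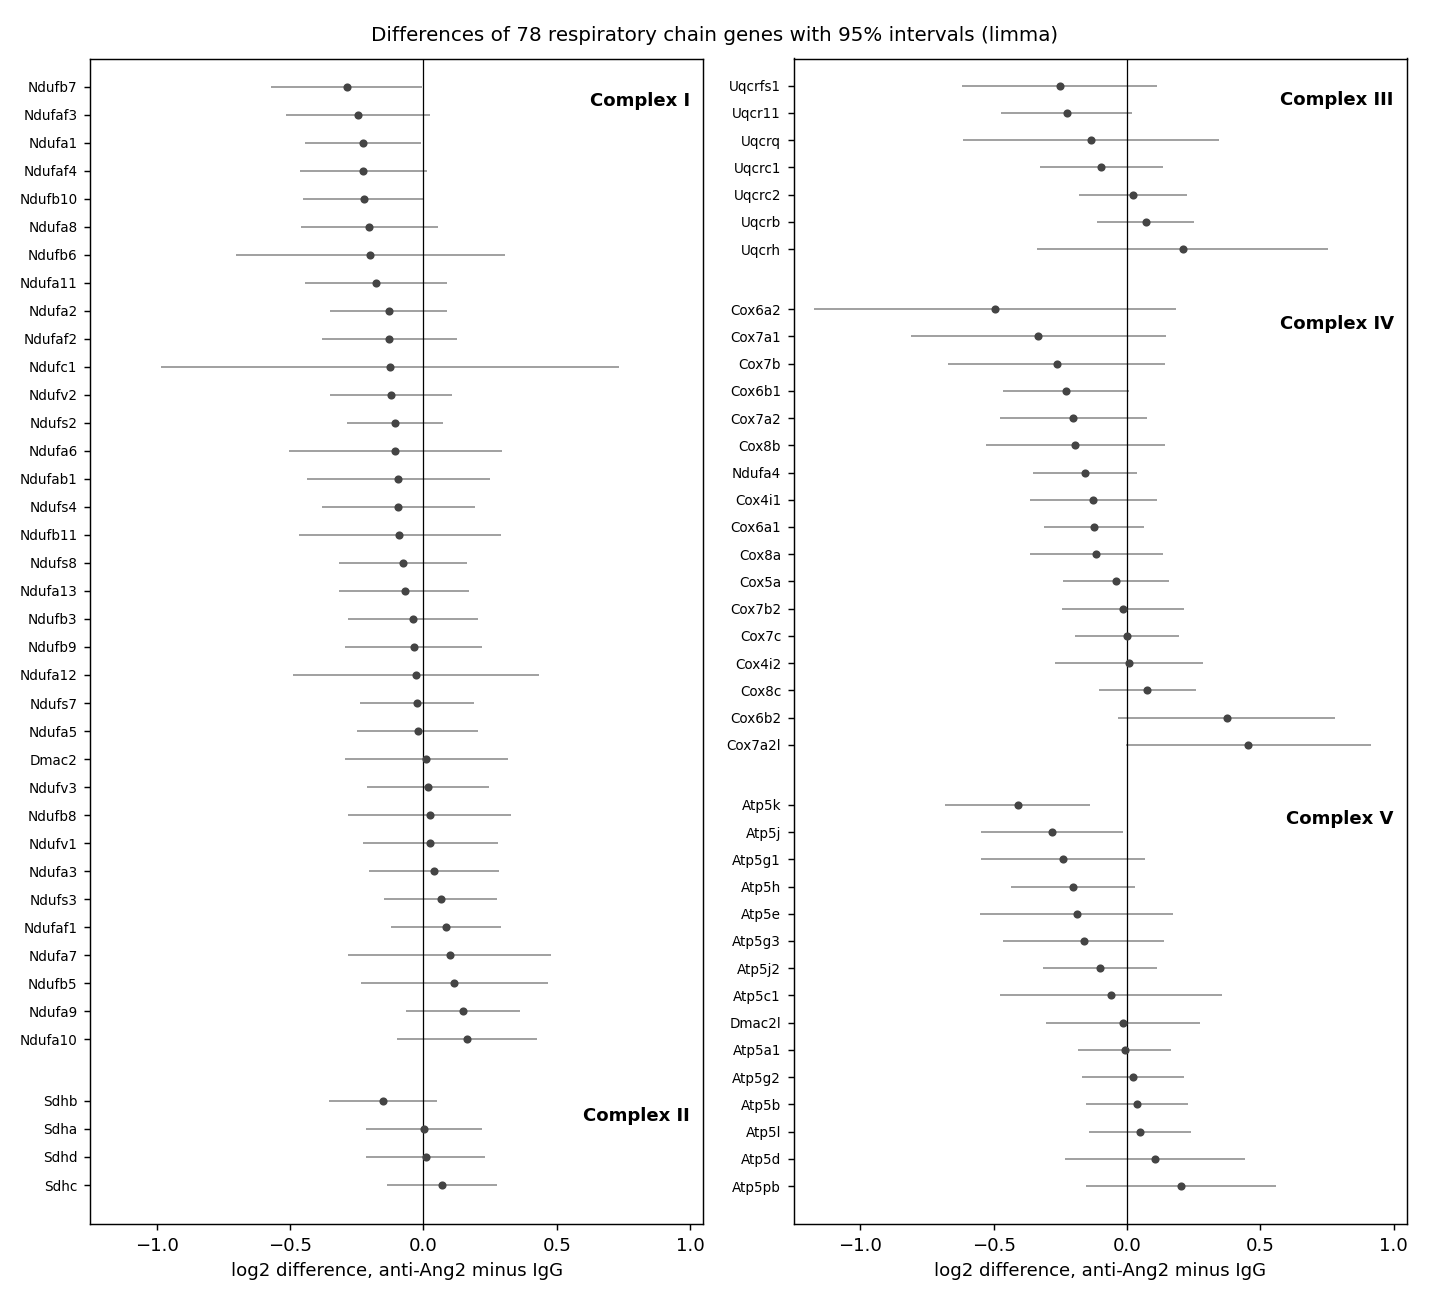
Log2 difference, anti-Ang2 minus IgG, of the 78 respiratory chain genes by complex (y axis: genes in order of difference; x axis: log2 units). Points are limma estimates and bars their 95% intervals. Most intervals cross 0, those of Atp5k, Atp5j, Ndufa1 and Ndufb7 lie below it, and the widest are those of Ndufc1 and Cox6a2.

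Complex I, the NADH dehydrogenase, had a mean difference of -0.07 over 35 members, of which 24 lay below 0. Its catalytic core subunits carry the flavin and the iron-sulphur clusters, and the 6 measured ones differed by -0.12 (Ndufv2) to 0.06 (Ndufs3). All 6 had intervals between -0.5 and 0.5. Of the 24 supernumerary subunits, which surround the core, 17 lay below 0. Ndufa1, a small subunit of the membrane arm, measured 9.62, 9.72, 9.75 and 9.58 in anti-Ang2 replicates 1 to 4, against 10.06, 9.96, 9.88 and 9.68 in IgG replicates 1 to 4. IgG replicate 4 lay within the anti-Ang2 range, so the groups overlapped (difference -0.23, SE 0.10, unadjusted p = 0.0424, adjusted p = 0.701 in limma). Ndufb7, which faces the intermembrane space, measured 7.26, 7.78, 7.79 and 7.81 in anti-Ang2 tumours, against 7.99, 7.98, 8.04 and 7.80 in IgG tumours (difference -0.29, SE 0.13, limma adjusted p = 0.701). Anti-Ang2 replicate 1 was far below the other 3 tumours of its group, and without it the difference was -0.16. Ndufb10, another subunit of the membrane arm, differed by -0.22 (limma adjusted p = 0.71). Of the complex I subunits with a positive difference, Ndufa10, Ndufa9 and Ndufb5 had the smallest p-values, with differences of 0.16, 0.15 and 0.12, and none passed.

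Ndufc1, a supernumerary subunit named here after its values were seen, was the most variable member. It measured 8.23, 6.82, 6.52 and 6.98 in anti-Ang2 tumours, against 7.96, 7.77, 6.74 and 6.58 in IgG tumours. High and low tumours occurred in both groups, and the spread within groups (SD 0.73) was far wider than the difference of -0.13, which ran from -0.49 to 0.11 with each array left out. The median spread within groups was 0.166 over all members and 0.154 over all genes. Of the 5 complex I assembly factors, Ndufaf3 differed by -0.25, Ndufaf4 by -0.23 and Ndufaf2, which acts late in assembly, by -0.13, while Ndufaf1 stood at 0.09 and Dmac2 at 0.01. Among 7 other measured assembly genes of complex I, such as Ecsit (0.10), Timmdc1 (-0.06) and Acad9 (-0.05), 3 were below 0 (46.4% of all genes were). None of the 7 had an unadjusted p under 0.05, where 3.00% of all genes did with a negative difference and 4.09% with a positive one.

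Complex II, succinate dehydrogenase, is also an enzyme of the citric acid cycle, and had the smallest mean difference of the 5 complexes (-0.02 over 4 genes). Sdha, the flavoprotein, measured 10.72, 11.01, 11.12 and 11.05 in anti-Ang2 tumours, against 10.96, 10.92, 10.95 and 11.04 in IgG tumours, a difference of 0.00 with a 95% interval of -0.22 to 0.22. Sdhb, the iron-sulphur subunit, measured 8.91, 8.92, 8.86 and 8.93 in anti-Ang2 tumours, against 9.21, 8.98, 9.15 and 8.88 in IgG tumours. The anti-Ang2 values lay close together and IgG replicate 4 fell among them (difference -0.15, interval -0.36 to 0.05, limma adjusted p = 0.792). The membrane anchors Sdhc and Sdhd differed by 0.07 and 0.01. Of 13 citric acid cycle genes, which include citrate synthase Cs (0.14), Suclg1 (-0.21) and Suclg2 (0.19), 9 were below 0 (46.4% of all genes were). In limma 0 of the 13 had an unadjusted p under 0.05, where 3.00% of all genes did with a negative difference and 4.09% with a positive one.

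Complex III had a mean difference of -0.06, with 4 of 7 members below 0. Uqcr11, a small subunit, measured 7.32, 7.64, 7.75 and 7.43 in anti-Ang2 tumours, against 7.80, 7.73, 7.89 and 7.62 in IgG tumours (difference -0.23, SE 0.11, limma adjusted p = 0.722). The Rieske iron-sulphur protein gene Uqcrfs1 differed by -0.25, with anti-Ang2 replicate 4 lowest at 6.76, and by -0.11 with that tumour left out. Uqcrh, the hinge protein, varied widely in both groups. It measured 10.36, 10.14, 9.42 and 10.14 in anti-Ang2 tumours, against 9.76, 10.41, 9.82 and 9.23 in IgG tumours (difference 0.21, SE 0.25). Single tumours set this value, which was 0.02 with IgG replicate 4 left out and 0.41 with IgG replicate 2 left out. Uqcrb, a subunit near the ubiquinone site, differed by 0.07. Cyc1, cytochrome c1, is a complex III subunit outside the naming pattern. It had a difference of -0.30 (SE 0.10, unadjusted p = 0.0132, adjusted p = 0.654 in limma). The assembly factor genes of complexes II to V had 18 of 30 below 0 (46.4% of all genes were), of which 4 had an unadjusted p under 0.05 (3.00% of all genes). Uqcc1 (-0.29) and Ttc19 (-0.28) of complex III and Cmc1 (-0.26) of complex IV were among them. For each of these 3 the groups did not overlap, as for 1.46% of all genes in that direction, and none passed correction in limma. The fourth, Coa3 of complex IV (-0.25), is named after its value was seen.

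Complex IV, cytochrome c oxidase, had a mean difference of -0.08, with 13 of 17 members below 0. All 9 widely expressed subunits measured (Cox4i1, Cox5a, Cox6a1, Cox6b1, Cox7a2, Cox7b, Cox7c, Cox8a and Ndufa4) lay below 0, as did 46.4% of all genes. Their differences had a mean of -0.14 and a range of -0.26 (Cox7b) to 0.00 (Cox7c). Over the 8 arrays these subunits co-varied (median pairwise Pearson's r 0.32), so the 9 signs are not independent. As deviations from the mean over the 8 arrays, their mean level was -0.13, 0.02, -0.10 and -0.08 in anti-Ang2 replicates 1 to 4, against 0.00, 0.16, 0.12 and 0.00 in IgG replicates 1 to 4. Anti-Ang2 replicate 2 lay above IgG replicates 1 and 4, so the groups overlapped. None of the 9 had an unadjusted p under 0.05, where 3.00% of all genes did with a negative difference. Cox6b1, which links the monomers of the dimeric enzyme, came closest at -0.23 (SE 0.11, unadjusted p = 0.0574, limma adjusted p = 0.715). It measured 9.46, 9.70, 9.42 and 9.52 in anti-Ang2 tumours, against 9.80, 9.88, 9.83 and 9.50 in IgG tumours. Ndufa4, once assigned to complex I and now to complex IV, differed by -0.16 and Cox7a2 by -0.20.

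The muscle isoforms of complex IV followed single tumours. Cox6a2 measured 5.99, 6.34, 6.48 and 5.82 in anti-Ang2 tumours, against 7.67, 6.74, 6.21 and 5.99 in IgG tumours. Its high values were those of IgG replicates 1 and 2, the tumours richest in skeletal muscle transcripts. The difference of -0.50 (SE 0.31, limma adjusted p = 0.797) was -0.16 without IgG replicate 1, and 0.09 with the skeletal muscle mean as a covariate. That mean itself differed between the groups, so values with the covariate cannot separate muscle content from the antibody. Cox8b measured 5.99, 5.84, 5.74 and 5.65 in anti-Ang2 tumours, against 6.48, 5.95, 5.73 and 5.84 in IgG tumours. IgG replicate 1 alone stood apart, and the difference of -0.19 became -0.04 without it and 0.07 with the covariate. Cox7a1 did not follow the muscle genes. It measured 6.24, 7.00, 7.45 and 7.30 in anti-Ang2 tumours, against 7.20, 7.45, 7.35 and 7.31 in IgG tumours. Here a low anti-Ang2 replicate 1 set the difference of -0.33 (SE 0.22), which was -0.08 without that tumour.

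The level of each isoform was set against the mean of the 16 muscle genes over the 8 tumours, for 6 isoforms. Pearson's r was 0.855 for Cox6a2 (two-sided exact permutation p = 0.0241, 0.0723 after Benjamini-Hochberg adjustment over the 6) and 0.865 for Cox8b (exact p = 0.0223, adjusted 0.0723). Spearman's rho was 0.667 for Cox6a2 (exact permutation p = 0.0831, adjusted 0.249) and 0.833 for Cox8b (exact p = 0.0154, adjusted 0.0923). Without IgG replicates 1 and 2, the tumours farthest from the median, r was 0.134 for Cox6a2 and 0.404 for Cox8b, so both relations rest on those tumours. For Cox7a1 r was 0.145 (exact permutation p = 0.84, adjusted 0.84) and rho -0.238 (exact permutation p = 0.582, adjusted 0.619), with r = -0.04 without the same tumours. The widely expressed partners Cox6a1, Cox7a2 and Cox8a had r of 0.388, 0.179 and -0.350 (exact permutation p = 0.331, 0.73 and 0.402, adjusted 0.603, 0.84 and 0.603). Their rho was 0.214, 0.286 and -0.405 (exact permutation p = 0.619, 0.501 and 0.327, each 0.619 after adjustment). Without the same tumours their r was -0.218, 0.413 and -0.236. With 4 tumours a group, the relation was not computed within groups.

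**Figure D2:**
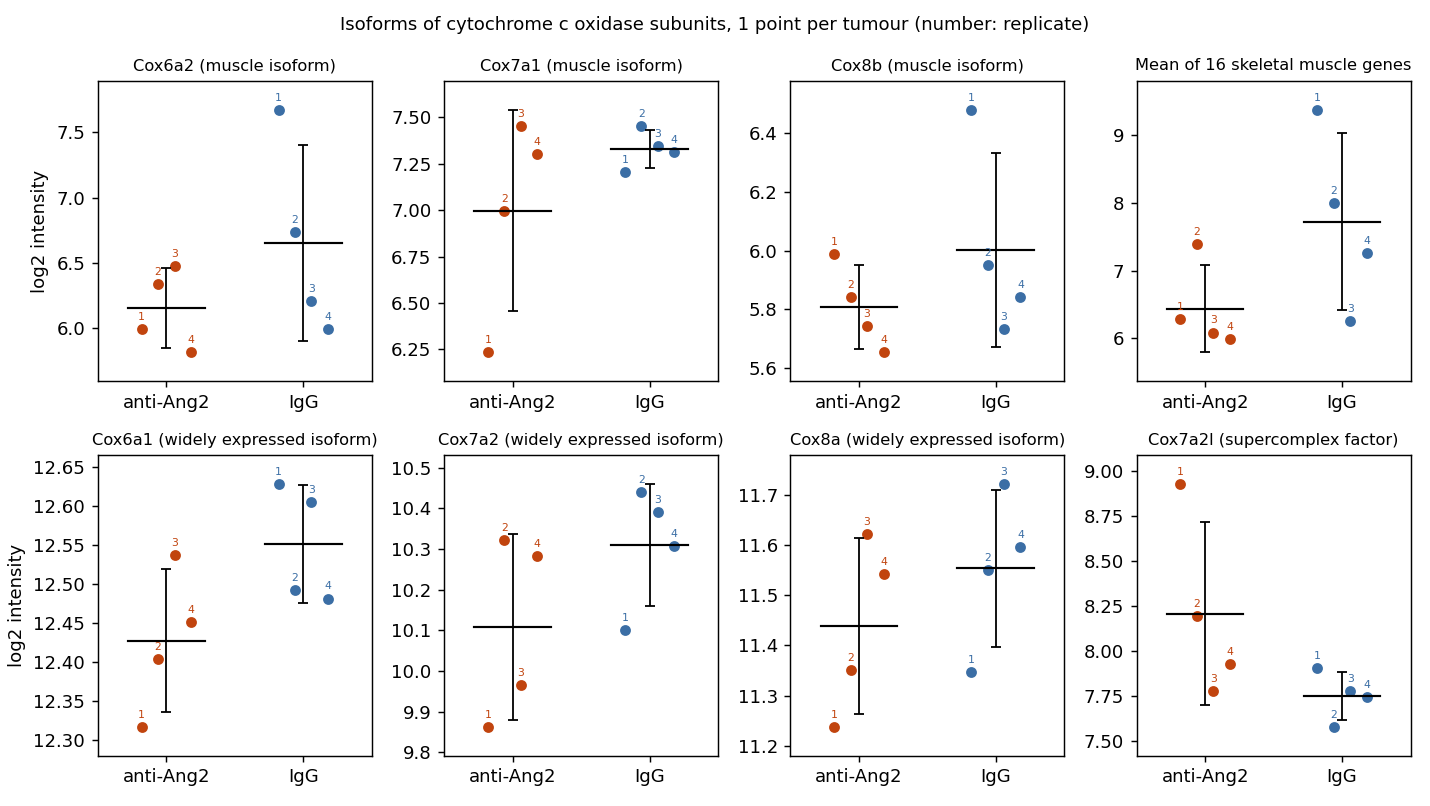
Log2 intensity (y axes) of muscle and widely expressed isoforms of cytochrome c oxidase subunits, of the mean of 16 skeletal muscle genes and of Cox7a2l, in anti-Ang2 (left) and IgG (right) tumours. Points are tumours with their replicate number, lines are means and bars SD (n = 4). IgG replicate 1 is highest for Cox6a2, Cox8b and the muscle genes, and anti-Ang2 replicate 1 is lowest for Cox7a1 and highest for Cox7a2l.

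Cox7a2l, which encodes the factor SCAF1 that joins complexes III and IV into supercomplexes, had the highest positive difference of the members (0.46, 95% interval 0.00 to 0.91, unadjusted p = 0.0518, limma adjusted p = 0.709). It measured 8.93, 8.19, 7.78 and 7.93 in anti-Ang2 tumours, against 7.91, 7.58, 7.78 and 7.74 in IgG tumours. Anti-Ang2 replicate 1 was far above the rest, and the difference was 0.22 without it. Cox6b2, the testis isoform, stood at 5.53, 5.89, 6.33 and 5.73 in anti-Ang2 tumours, against 5.57, 5.86, 5.12 and 5.43 in IgG tumours (difference 0.37, SE 0.19). The groups overlapped, and the difference was 0.22 with anti-Ang2 replicate 3 left out and 0.25 with IgG replicate 3 left out. Cox4i2, an isoform known to be induced by low oxygen, differed by 0.01, with an interval of -0.27 to 0.29. The other testis isoforms, Cox7b2 (-0.02) and Cox8c (0.08), lay near 0. The testis isoforms were dim, with Cox6b2 at the 30.6, Cox8c at the 17.6 and Cox7b2 at the 2.51 percentile of gene means. Their differences therefore say little about expression.

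Complex V, the ATP synthase, held the member of smallest p. Atp5k, subunit e, which helps to join the enzyme into dimers, measured 8.47, 8.78, 8.50 and 8.59 in anti-Ang2 tumours, against 9.20, 9.15, 8.92 and 8.70 in IgG tumours. Only IgG replicate 4 reached into the anti-Ang2 range (difference -0.41, SE 0.12, fold 0.753, unadjusted p = 0.00694, limma adjusted p = 0.604). The difference was -0.51 to -0.34 with each array left out in turn, and -0.24 with the skeletal muscle mean as a covariate. In the authors' deposited table Atp5k was the 1 member with a p-value under 0.05 (0.0391, ratio 0.748), where that table has such a p with a ratio below 1 for 2.03% of all genes and above 1 for 3.02%. Atp5j, coupling factor 6 of the peripheral stalk, measured 7.01, 7.24, 7.14 and 7.52 in anti-Ang2 tumours, against 7.31, 7.64, 7.56 and 7.53 in IgG tumours (difference -0.28, SE 0.12, limma adjusted p = 0.698). Anti-Ang2 replicate 4 lay above IgG replicate 1. Atp5h, another stalk subunit, differed by -0.20. The catalytic subunits Atp5a1 and Atp5b stood at -0.01 and 0.04, both with intervals within 0.25 of 0. Of those with a positive difference, Atp5pb (0.20), Atp5d (0.11) and Atp5l (0.05) had the smallest p-values. The mean of the 15 members was -0.08, with 10 below 0.

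Set against its mean over the 8 arrays, complex V stood at -0.09, 0.01, -0.04 and -0.05 in anti-Ang2 replicates 1 to 4, against -0.01, 0.04, 0.12 and 0.02 in IgG replicates 1 to 4. The highest IgG tumour was replicate 3, and anti-Ang2 replicate 2 lay above IgG replicate 1. For complex I the values were -0.03, 0.01, 0.00 and -0.11 in anti-Ang2 tumours, against 0.00, 0.04, 0.09 and 0.00 in IgG tumours. In both complexes the groups overlapped. Complex III varied most among IgG tumours, from -0.11 in replicate 4 to 0.22 in replicate 2, more widely than the anti-Ang2 tumours (-0.11 to 0.06).

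**Figure D3:**
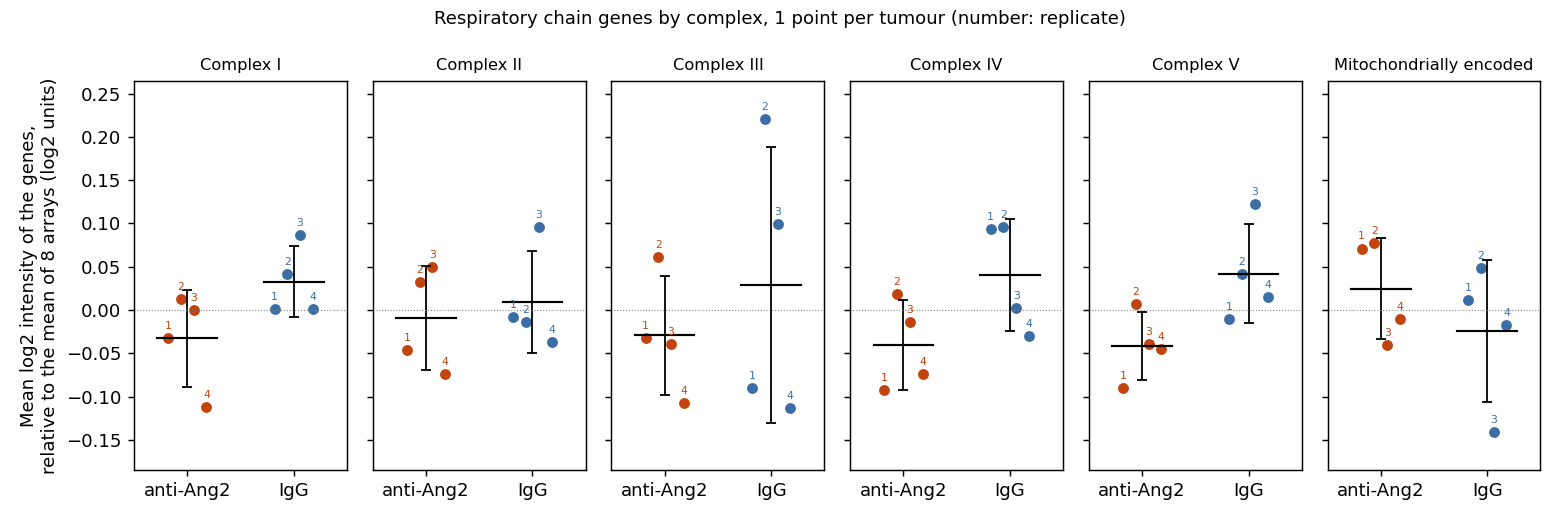
Mean log2 intensity of the members of each complex and of 10 mitochondrially encoded genes, relative to the mean of 8 arrays (y axis, log2 units), in anti-Ang2 (left) and IgG (right) tumours. Points are tumours with their replicate number, lines are means and bars SD (n = 4); the groups overlap in every panel, with anti-Ang2 means below IgG means for the nuclear complexes and above for the mitochondrially encoded genes.

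Of 13 subunits encoded in mitochondrial DNA 10 were measured, and those of complex V were not among them. A positive difference was found for 9 of the 10 and a negative one for 1, where 46.4% of all genes were below 0. The median was 0.03, against 0.01 for all genes. All but ND6 stood at the 99.9 or 100 percentile of gene means, and whether such bright probe sets can show a difference was not tested. None of the 10 reached an unadjusted p of 0.05 in limma (3.00% of all genes did lower, 4.09% higher), and 0 passed correction. ND1 (0.02), ND2 (0.02), ND4 (0.00) and ND5 (0.03) of complex I, CYTB (0.03) of complex III, and COX1 (0.02) and COX3 (-0.01) of complex IV all lay within 0.05 of 0. The largest difference was that of ND6 (0.28, SE 0.16, adjusted p = 0.766), the subunit encoded on the opposite strand to the rest. ND4L and ND3 stood at 0.06 and 0.05. The difference between nuclear and mitochondrially encoded genes was not tested.

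Members co-varied weakly over the 8 tumours. The median pairwise Pearson's r was 0.10 over 3081 pairs of members, where all pairs of genes had a median of 0.01. Pairs share the same arrays, and so are not independent. Among the widely expressed complex IV subunits the median was 0.32 (36 pairs), among the complex I core subunits 0.30 (15 pairs), and within complex II -0.13 (6 pairs).

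**Figure D4:**
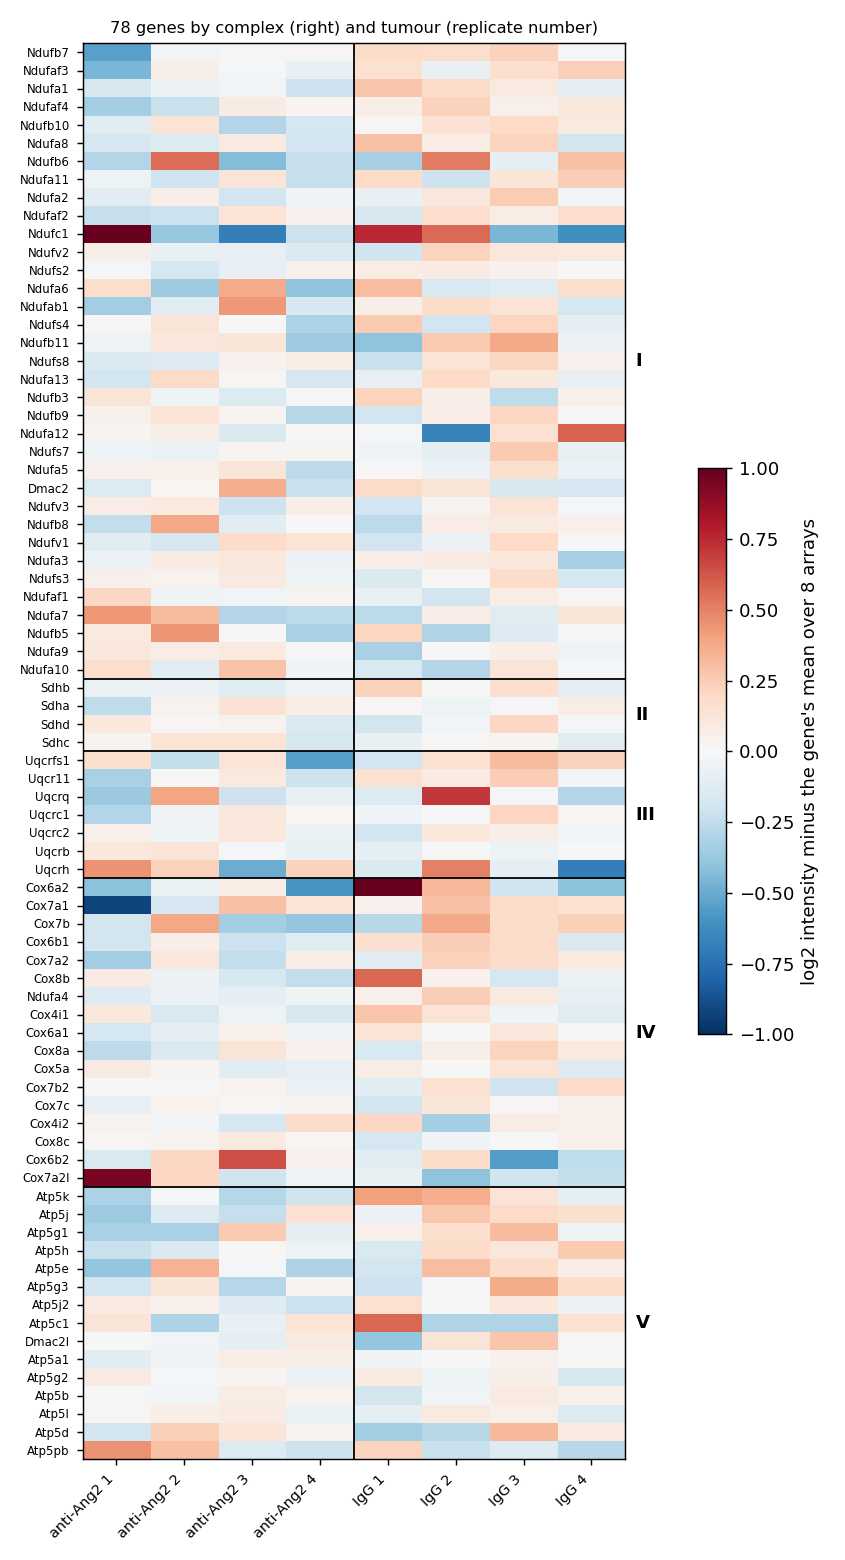
Log2 intensity of 78 members minus each gene's mean over the 8 arrays (colour), by complex (rows, within a complex from the lowest to the highest difference) and tumour (columns, anti-Ang2 left and IgG right). Isolated dark cells mark the tumour-specific values of Ndufc1, Cox6a2, Cox7a1 and Cox7a2l, and most other cells are within 0.5 of 0.

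Genes that act on the respiratory chain from outside gave the context. Of 9 hypoxia genes with mitochondrial roles, 1 had a difference below 0 (46.4% of all genes did). A positive difference with an unadjusted p under 0.05 was found for 4 (4.09% of all genes), with 0 past correction in limma. Hif1a, the oxygen-sensitive transcription factor subunit, stood at 0.42, Mxi1, a MYC antagonist, at 0.65, and the mitophagy receptor gene Bnip3 at 0.47. The fourth was Pdk1, the kinase that limits pyruvate entry into mitochondria (0.26, named after its value was seen). Pdk1 was dim (12.6 percentile of gene means), so its difference says little about expression. For all 4 the groups overlapped. IgG replicate 1 was the lowest tumour for Mxi1 (6.53), Bnip3 (9.32) and Pdk1 (4.97), and IgG replicate 3 for Hif1a (9.98). Ndufa4l2, the hypoxia-induced relative of Ndufa4, differed by 0.15. Among 13 regulators of mitochondrial biogenesis 7 were below 0 (46.4% of all genes were). In limma 0 of these 13 had an unadjusted p under 0.05 (3.00% of all genes lower, 4.09% higher). Pprc1 (-0.30), Gabpb1 (0.30) and the mitochondrial polymerase gene Polg (-0.19) had the smallest p-values. The electron carriers and other subunits had 7 of 13 below 0 (46.4% of all genes were). Of these, Coq2 and Cyc1 had an unadjusted p under 0.05 in limma, 2 of 13, where 3.00% of all genes did in that direction. Coq2, an enzyme of ubiquinone synthesis, differed by -0.29 (unadjusted p = 0.00841, adjusted p = 0.616 in limma). Its groups did not overlap, as for 1.46% of all genes in that direction. Etfdh, which feeds electrons to ubiquinone, differed by 0.27. Cycs, cytochrome c itself, named after its values were seen, measured 8.38, 10.18, 8.38 and 9.60 in anti-Ang2 tumours, against 8.77, 10.25, 10.11 and 10.05 in IgG tumours. Both groups held low tumours (difference -0.66, SE 0.43, limma adjusted p = 0.806). Of 7 genes of the outer membrane and import, 4 were below 0, with Tomm20 at -0.18, Tomm22 at -0.13 and Vdac3 at 0.26.

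Markers of other cells differed beside these values, with 0 past correction in limma, and their part was not tested. A fit with the skeletal muscle mean as a covariate cannot separate muscle content from the antibody, since that mean differed between the groups. Mean differences were -1.28 for 16 skeletal muscle genes, 0.28 for 4 macrophage, 0.30 for 3 endothelial, 0.24 for 4 pericyte, 0.19 for 3 fibroblast, 0.09 for 7 melanocytic and -0.01 for 6 adipocyte genes. The macrophage genes were split, with Mrc1 at 0.91 and Cd68 at 0.42, but Adgre1 at 0.00 and Csf1r at -0.21. With the skeletal muscle mean as a covariate, 56 of 79 members were below 0.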

How the data were processed

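Total RNA (250 ng per tumour) had been labelled with biotin and hybridised to Affymetrix whole-transcript arrays, per the labels' protocols. The deposited workbook gives, for every probe set on each array, an intensity on a linear scale that the authors had normalized, and there is a series value table with the same values (largest relative difference 4.9e-10). The deposited workbook also holds a fold (ratio of group means) and an unadjusted p-value. Background correction and normalization are not given in the sources used here. Log2 was taken with no pseudocount, since no value is at or below 0.

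Of 24648 probe sets, 22840 carry 1 symbol, 1389 several and 419 none usable here. Leaving out those with missing values left 22836 genes. The annotation of 10 members is cut short, so further genes on these probe sets are possible. Current symbols came from a RefSeq table matched by Entrez ID (79 of 79 members matched, 4 changed). The position of the probes was not compared with that of the gene, so a probe set, such as that of Cycs, may read a related sequence. Antibody groups were compared by limma 3.58.1 in R 4.3.3 (lmFit, eBayes, no covariate, 4 arrays against 4) with Benjamini-Hochberg adjustment over all genes at 0.05. The procedure was also run on simulated data with independent noise and planted changes larger than any member's difference. That run cannot show whether changes of the members' size would be found. Precision is limited by the number of arrays: the median SE over genes was 0.108. Exact permutation tests used scipy 1.17.1.

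The members, lists and tests were chosen with earlier results of these data known. Named genes were the members of complex II, the complex IV isoforms and their partners, and, per direction, the 3 members of smallest p among the complex I subunits, the complex I assembly factors, complex IV and complex V, and the 2 in complex III, plus up to 3 genes of each context list. Other genes were named after their values were seen. Alternatives were other normalizations, filters, fits, the replicate block, each array left out and the skeletal muscle mean as a covariate.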

Additional observations from a re-analysis of the deposited data

Results flagged for a closer look

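In 90 groups of 4 tumours, for the named members and the complex means, 1 group held a value far from the other 3 by Dixon's test at the 95% level, where chance flags about 1 in 20. Ndufb7 in anti-Ang2 replicate 1 had a log2 intensity of 7.26, while the other 3 anti-Ang2 tumours lay between 7.78 and 7.81.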

How the results depend on the processing

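No member passed an adjusted p of 0.05 under any alternative run, with the series value table, all probe sets or a threshold of 0.1 included. The smallest adjusted p of a member over the alternatives was 0.413, without anti-Ang2 replicate 4. The number of members with a negative difference and an unadjusted p under 0.05, 4 in the main comparison, was 2 after leaving out the dimmest 25% of genes, 1 with trend and robust eBayes, 1 in the authors' deposited p-values, and 1 to 9 with each array left out. The number with a positive difference, 0 in the main comparison, was 1 with trend and robust eBayes, 1 with array weights, 1 with the replicate block, 2 with the skeletal muscle covariate, and 0 to 1 with each array left out. The replicate block gave 0 members past the threshold and the same mean difference (-0.07). Replicate numbers did not pair the samples: deviations of same-numbered tumours correlated at -0.05 to 0.08, and 2 of 4 correlated best with their own number. The mean differences of all members, of the 5 complexes and of the muscle isoforms moved by less than 1 SD between arrays. Within that, with each array left out in turn, complex I ran from -0.08 to -0.04 (closest to 0 without anti-Ang2 replicate 4), complex II from -0.04 to 0.01 (above 0 when anti-Ang2 replicate 4 was dropped, or IgG replicate 3), and complex III from -0.11 when IgG replicate 4 was dropped to 0.01 when IgG replicate 2 was. The muscle isoforms ran from -0.43 to -0.19, the last without IgG replicate 1. With the covariate, complex IV stood at -0.03 and the muscle isoforms at -0.08, against -0.08 and -0.34 with no covariate. Of 40 named members, 5 changed sign with the covariate, Cox6a2 and Cox8b among them, and at most 4 did under any other alternative. The number of arrays limits what can be seen: with 4 per group, intervals of the muscle isoforms extend past 0.5 log2 units.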
